A study of Mus musculus with 4 samples.

Results

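The genes described here carry solutes across membranes: solute carriers (Slc and Slco), ABC transporters and transporting ATPases. They were taken by name from the deposited table of exercised against sedentary bone, as every row whose symbol began with Slc or Slco and a number, with Abc, a letter from a to g and a number, or with Atp and a number. The rule found 34 of the 1175 listed genes, from 22 numbered or lettered families, and itself used no measured value. The table it was applied to holds only genes with a larger mean count in exercise, so the members are not independent of the counts compared below. RNA came from bone of 13-week-old wild-type mice (Cre line also wild type), of the C57BL/6J strain per the study's text. The exercise group (2 libraries) was trained by medium-intensity treadmill running, begun at 8 weeks of age and kept up for 5 weeks with the electric shock on, and the sedentary group (2 libraries) did not run. Marrow was flushed before the bones were ground, and libraries were made by a modified Smart-seq2 method with molecular barcodes. The labels do not say whether libraries came from separate or pooled animals, and p-values therefore speak only to the variation among these 4 libraries, part or all of which may be technical.

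Solute carriers move their cargo down a gradient or couple it to that of another ion, while ABC transporters and the pumps called P-type ATPases spend ATP. ABCA and ABCG proteins and the P4-type ATPases move lipids between or out of membrane leaflets. In bone, osteoclasts dissolve mineral with a proton pump of the Atp6 family, and in the marrow red cell precursors need carriers for glycine, iron and anions. No gene of the Atp5 or Atp6 families, the rotary ATPases, was among the rows analysed here.

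Every row of the table has the larger mean count in exercise, by at least 2.477 times, so a direction cannot be read from counts. Values below are shares, the counts of a gene per 1000000 counts of the listed genes in that library, and a ratio is the share in exercise over that in sedentary bone. The floor in the counts limits how low a ratio can fall, with no such limit on a rise. The listed genes summed to 516963 and 594856 counts in the sedentary and to 1160883 and 2680636 counts in the exercise libraries, and the full depth of the libraries is unknown. The 34 transporter genes together took a share of 24552 in exercise replicate 1 and 26421 in exercise replicate 2, and of 23194 and 23665 in the sedentary pair. Of the marker genes of other cells, 3 of 12 erythroid, 2 of 11 neutrophil, 4 of 9 B lymphocyte, 3 of 8 megakaryocyte and 1 of 6 osteocyte genes were listed, and 0 of the 8 osteoblast, 9 osteoclast, 8 macrophage, 5 chondrocyte, 5 adipocyte, 5 endothelial and 8 skeletal muscle genes, so the label bone could be checked only on Sost. Its share was 786 and 696 in exercise and 723 and 667 in sedentary bone. In bulk bone, more cells of a type and more RNA per cell cannot be told apart.

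By name, 520 protein-coding genes of GENCODE M21 fit the rule, so the 34 listed genes are 6.54% of them. Groups were assigned by family number, so some genes carry a cargo other than that of their group. Lipid transporters were listed most often, with 9 of 55 genes (16.4%), followed by the metal group with 5 of 40 (12.5%) and amino acid carriers with 8 of 70 (11.4%). Of the carriers of organic ions and drugs 4 of 61 were listed (6.56%), of ion transporters 4 of 84 (4.76%), of mitochondrial carriers 2 of 47 (4.26%), of sugar carriers 1 of 34 (2.94%), and of carriers of carboxylates, vitamins and other metabolites 1 of 47 (2.13%). Carriers of nucleosides and nucleotide sugars (34 genes) and the proton-moving rotary ATPases (43 genes) had 0. How the rows of the table were chosen is not given in the sources used here, so these shares describe the table and not which transporters bone expresses.

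Lipid transporters held both genes past the study's thresholds. Abcg4, a half-size ABC transporter that exports sterols, and Abca2, an ABC transporter of lysosomal and endosomal membranes in lipid handling, had higher shares in both exercise libraries than in both sedentary ones. They were the 2 of 34 genes past the study's thresholds (p under 0.05 before adjustment, and a log2 ratio beyond 0.25 in either direction) in the quasi-likelihood test of edgeR (5.88% of the transporter genes, against a background of 11.3% of all listed genes with a higher share at those thresholds and 11.4% in either direction). No transporter gene passed in the other direction, where the background was 0.0851%. The lowest count ratio in the table, 2.477, left little room for a lower share, so these figures say little about direction. After Benjamini-Hochberg adjustment over the 1175 genes 0 transporter genes passed 0.05 in edgeR (background 0.34%), 2 having an unadjusted p under 0.05. The DESeq2 Wald test gave 1 (Abcg4, background 3.06%) and limma-voom 0, with 0 at the study's thresholds as well.

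**Figure D1:**
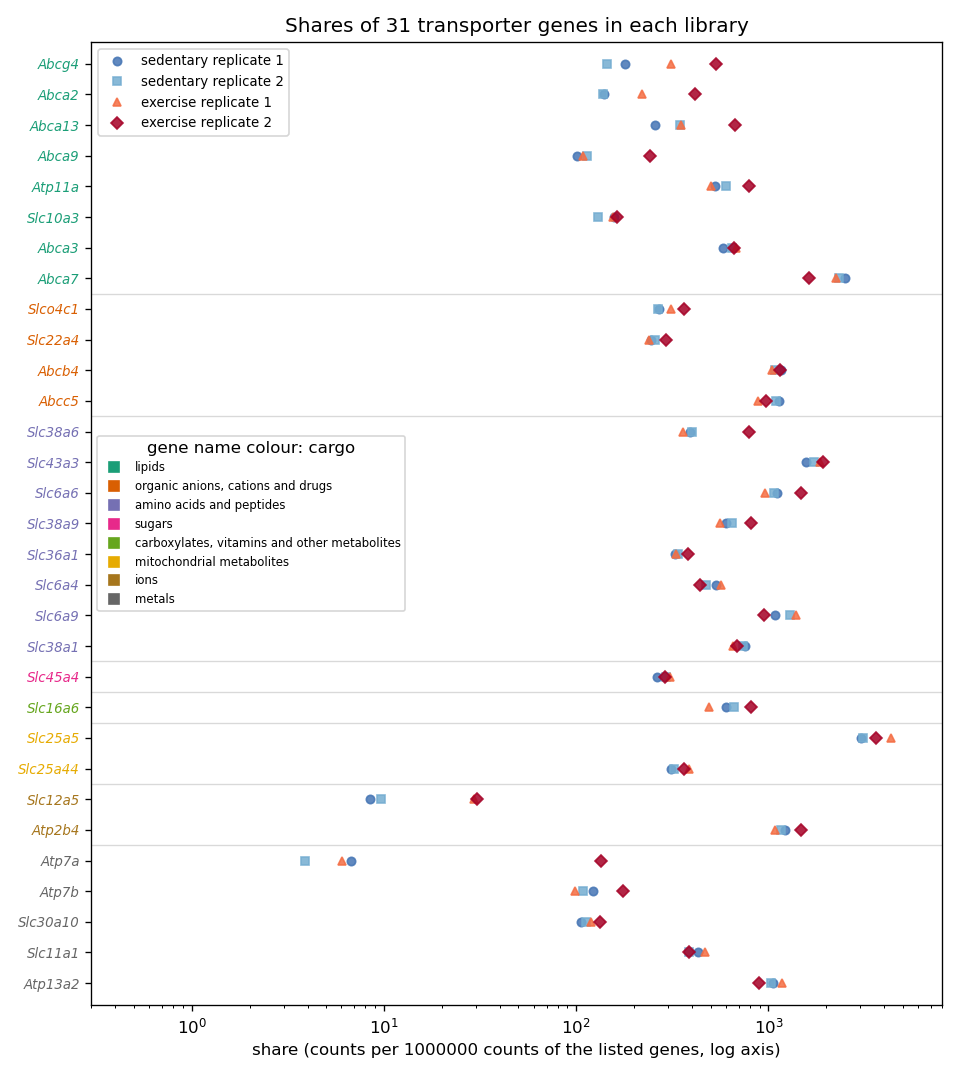
Share of each of 31 transporter genes (horizontal log axis, counts per 1000000 counts of the listed genes) in the 4 libraries, 1 row per gene, grouped by cargo. For Abcg4 and Abca2 both exercise points lie to the right of both sedentary points, while Atp7a has 1 exercise library at 134 and the other 3 libraries between 3.87 and 6.72.

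The promoters of 3 genes are shown: Abca2, past the thresholds, Abca7, the gene with the lowest ratio, and Atp7a, the gene with the highest. Each runs from 250 bases before to 50 bases after the RefSeq start on GRCm38.p6 (mm10), plus strand, 5′ to 3′. Capitals mark GGGCGG, the GC box bound by SP and KLF factors, and CACGTG, an E-box, each searched on both strands. These motifs do not overlap each other here. The windows lie at chr2:25428349-25428648 (Abca2), chr10:79996244-79996543 (Abca7) and chrX:106026974-106027273 (Atp7a).
Abca2: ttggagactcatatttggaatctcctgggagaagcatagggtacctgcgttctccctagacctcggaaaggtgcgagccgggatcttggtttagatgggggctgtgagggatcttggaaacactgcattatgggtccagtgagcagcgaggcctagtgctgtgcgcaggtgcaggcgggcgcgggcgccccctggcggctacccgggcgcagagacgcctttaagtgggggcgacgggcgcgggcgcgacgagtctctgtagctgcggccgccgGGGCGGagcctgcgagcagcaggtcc
Abca7: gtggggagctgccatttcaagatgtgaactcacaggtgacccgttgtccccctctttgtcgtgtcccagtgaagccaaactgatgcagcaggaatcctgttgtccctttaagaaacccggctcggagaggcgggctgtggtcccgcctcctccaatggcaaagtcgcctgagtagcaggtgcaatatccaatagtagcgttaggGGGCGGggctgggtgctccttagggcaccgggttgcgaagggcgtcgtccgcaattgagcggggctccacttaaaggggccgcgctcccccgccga
Atp7a: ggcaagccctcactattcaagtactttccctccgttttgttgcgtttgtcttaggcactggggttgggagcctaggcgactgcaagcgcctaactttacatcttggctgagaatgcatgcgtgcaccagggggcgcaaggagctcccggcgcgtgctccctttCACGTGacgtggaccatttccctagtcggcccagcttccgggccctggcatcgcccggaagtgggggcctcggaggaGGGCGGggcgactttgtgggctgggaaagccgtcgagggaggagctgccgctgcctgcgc
A GC box occurred 1 time in each of the 3, and an E-box 1 time in Atp7a. Of all 27025 RefSeq promoters of this length 35.9% held a GC box and 7.24% an E-box. Among the 23 transporter genes with a promoter entry, 15 held a GC box and 3 (Atp7a, Slc22a4 and Slc36a1) an E-box. The background was not computed for the listed genes, so no enrichment particular to transporter genes can be read from it. The letters GGGCGG were thus found both at Abca2, with a higher share, and at Abca7, with a lower one.

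Abcg4 (ENSMUSG00000032131, chromosome 9, 44273188 to 44288615, minus strand, GENCODE M21 on mm10) had a share of 312 in exercise replicate 1 and 533 in exercise replicate 2, and of 180 and 145 in the sedentary pair. The lowest exercise share was thus above the highest sedentary one, and the exercise libraries differed from each other by 1.71 times. The log2 ratio was 1.38 ± 0.31 (SE), with an edgeR adjusted p of 0.2397, and it lay between 0.93 (without exercise replicate 2) and 1.71 (without exercise replicate 1) with each library left out. The call was lost with limma-voom. With a library left out, a group holds a lone library, so calls kept in those fits say little. The count of Abcg4 in exercise replicate 2 is fractional (1428.86), for a reason the sources used here do not give. In mouse marrow Abcg4 is known from megakaryocyte progenitors, where it exports cholesterol. Of the 3 listed megakaryocyte markers, Tubb1 (log2 2.13 ± 0.40, edgeR adjusted p = 0.2182) and Gp1ba (0.93 ± 0.17, adjusted p = 0.2112) passed the study's thresholds and Vwf had a ratio of -0.23 ± 0.18. Their summed share was 2548 and 2830 in exercise against 2091 and 1858 in sedentary bone, and the part of megakaryocytes in the value of Abcg4 was not tested.

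Abca2 (chromosome 2, 25428703 to 25448540, plus strand) had a share of 219 in exercise replicate 1, 416 in exercise replicate 2, and 140 and 137 in the sedentary pair. The sedentary libraries were close (138 ± 1.55, SD, n = 2), while the exercise libraries were far apart (318 ± 140, SD, n = 2). The log2 ratio of 1.20 ± 0.36 (edgeR adjusted p = 0.3599) became 0.66 without exercise replicate 2 and 1.59 without exercise replicate 1. The call was lost without sedentary replicate 1, without sedentary replicate 2 and with limma-voom. Its counts were whole in all libraries, and no annotated gene shares an exon with it.

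The other ABCA genes ran from a log2 ratio of -0.32 to 0.76. Abca13, the giant member of the family, had 352 and 667 counts per 1000000 in exercise and 257 and 348 in sedentary bone, so the groups were separated by the small step from 348 to 352. Its log2 ratio was 0.76 ± 0.35 (edgeR adjusted p = 0.4522), or 0.23 without exercise replicate 2. With all 4 libraries it passed the study's thresholds only with the replicate block. Abca9, from the ABCA cluster on chromosome 11, had 109 and 243 in exercise against 101 and 114 in sedentary bone. The higher share of Abca9 was seen in exercise replicate 2 alone, and its log2 ratio of 0.71 ± 0.46 was 0.02 without that library. Abca3, which loads surfactant lipids into lamellar bodies in lung, had a ratio of 0.12 ± 0.15, with exercise shares of 678 and 658 above the sedentary 579 and 650 by a margin smaller than the sedentary spread.

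Abca7, a phospholipid exporter with a role in phagocytosis, had the lowest ratio of the 34 genes. Its share was 2255 and 1632 in exercise replicates 1 and 2 and 2506 and 2343 in sedentary bone, so both exercise shares lay below both sedentary ones. The log2 ratio was -0.32 ± 0.20 (edgeR adjusted p = 0.4794). Dropping exercise replicate 1 moved it to -0.57, and dropping exercise replicate 2 moved it to -0.11. In raw counts Abca7 was listed as higher in exercise, by 2.59 times on the means, the lowest such ratio among the transporter genes, against a median of 3.92 over the 34 and 3.85 over all listed genes. The lowest over all listed genes was 2.477, so Abca7 lay near the floor of the table, and its lower share is relative to genes listed above that floor.

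**Figure D2:**
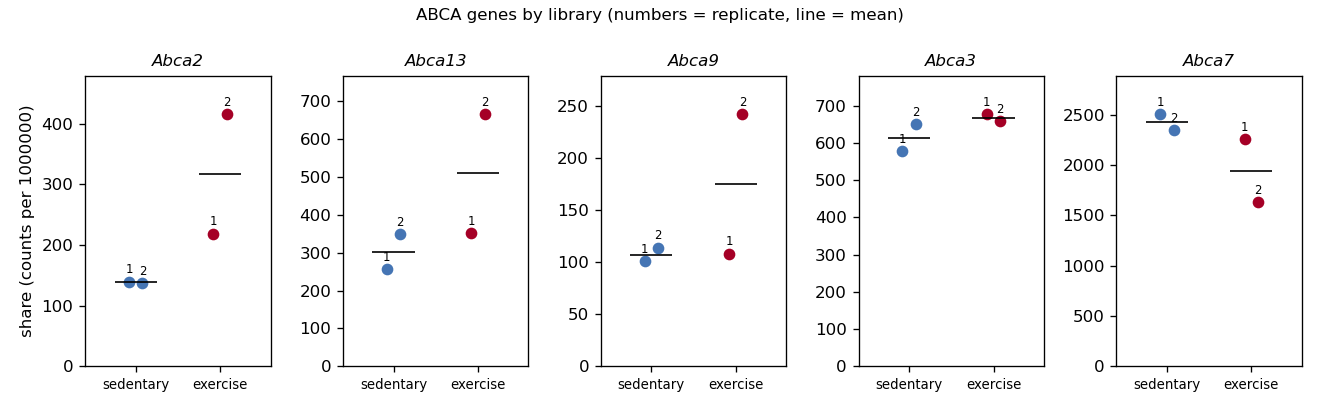
Shares of the 5 listed ABCA genes (vertical axes from 0, counts per 1000000 counts of the listed genes) in sedentary and exercise libraries, with points labelled by replicate and a line at the group mean. In Abca2, Abca13 and Abca9 exercise replicate 2 is the highest of the 4 libraries (416, 667 and 243), and in Abca7 it is the lowest (1632).

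Of the remaining lipid genes, none passed the thresholds. Atp11a encodes a P4-type flippase that returns phosphatidylserine to the inner leaflet. It had 502 and 795 in exercise against 530 and 600 in sedentary bone (log2 0.20 ± 0.25). Exercise replicate 1 was the lowest library and exercise replicate 2 the highest, so the groups overlapped. Slc10a3, a bile acid carrier relative without a known substrate, had a ratio of 0.14 ± 0.29. In all, 7 of the 9 lipid genes had a higher share (background 64.1%), 4 with both exercise libraries above both sedentary ones (background 36.0%), and their median log2 ratio was 0.20, against 0.14 over all listed genes.

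The 4 carriers of organic ions and drugs were divided, 2 with a higher (background 64.1%) and 2 with a lower share, and 0 passed the thresholds. Abcc5, which exports cyclic nucleotides, had 886 and 970 counts per 1000000 in exercise and 1135 and 1091 in sedentary bone, both exercise libraries being lower. Its log2 ratio was -0.26 ± 0.14 (edgeR adjusted p = 0.4631). Abcc5 passed the study's thresholds with DESeq2 size factors (-0.37, background 1.79% lower) and with TMM factors (-0.36, background 0.936% lower). Leaving out exercise replicate 2 gave a ratio of -0.33, and leaving out exercise replicate 1 one of -0.20. Abcb4, grouped here by its family although it moves phosphatidylcholine into bile, had 1044 and 1147 against 1168 and 1076 (log2 -0.03 ± 0.14). Slco4c1, an organic anion carrier best known from kidney, was higher in both exercise libraries, at 311 and 363 against 271 and 267. Its ratio was 0.33 ± 0.18, or 0.43 without exercise replicate 1 and 0.21 without exercise replicate 2. Slc22a4, the ergothioneine carrier, had a ratio of 0.08 ± 0.21, or -0.027 with DESeq2 size factors, so the even division depended on the scaling.

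Amino acid carriers, grouped by family number, formed the second largest group, with 8 genes, and 0 passed the thresholds. The serotonin transporter Slc6a4 is counted among them by its family. The group's highest counts belonged to Slc43a3, which carries purine nucleobases although its relatives carry amino acids. It had 1846 and 1912 counts per 1000000 in exercise and 1565 and 1718 in sedentary bone, without overlap, and a log2 ratio of 0.20 ± 0.14 (edgeR adjusted p = 0.529). Slc6a6, the taurine carrier, had 957 and 1478 in exercise, on either side of the sedentary 1104 and 1072 (log2 0.16 ± 0.23). Slc38a1, a sodium-coupled glutamine carrier, was the 1 amino acid gene below both sedentary libraries, at 652 and 689 against 752 and 741, with a ratio of -0.15 ± 0.14.

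The 3 Slc38 genes did not share a direction with all 4 libraries. Without exercise replicate 2 each had a lower share, with Slc38a9 at a ratio of -0.16 and Slc38a1 at -0.19. Slc38a6 had 357 and 793 in exercise against 389 and 398 in sedentary bone, and its ratio of 0.56 ± 0.38 became -0.14 without exercise replicate 2. Slc38a9, the lysosomal arginine sensor upstream of mTORC1, had 556 and 812 against 602 and 646 (log2 0.14 ± 0.22). Slc36a1, a proton-coupled carrier that exports amino acids from lysosomes, had 330 and 382 against 328 and 339 (log2 0.10 ± 0.17). Slc38a6, Slc38a9 and Slc36a1 overlapped between groups, each with exercise replicate 2 as the highest library.

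The Slc6 genes of blood cells lay at a ratio near 0. Slc6a9 takes up glycine, which red cell precursors use to make heme, and it had 1396 and 952 in exercise against 1084 and 1297 in sedentary bone (log2 -0.02 ± 0.23). Slc6a4, the serotonin transporter by which platelets load serotonin, had 567 and 443 against 533 and 472 (log2 0.00 ± 0.19), so that a difference was not detectable. Of the 3 listed megakaryocyte markers, given with Abcg4, Tubb1 and Gp1ba had higher shares in both exercise libraries and Vwf overlapped between groups, and their part in the value of Slc6a4 was not tested. In both Slc6 genes exercise replicate 1 was the highest and exercise replicate 2 the lowest library. The summed share of the 3 listed erythroid markers was 9842 and 10767 in exercise and 10949 and 11109 in sedentary bone, Ank1 (log2 0.43 ± 0.15, edgeR adjusted p = 0.3645) passing the study's thresholds and Epb42 (-0.24 ± 0.18) and Sptb (-0.28 ± 0.14) not, and the part of red cell precursors in the values of Slc6a9 was not tested.

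Single genes stood for the sugar and carboxylate carriers. Slc45a4, from a family of proton-coupled sugar carriers, had 308 and 289 counts per 1000000 in exercise and 264 and 292 in sedentary bone (log2 0.10 ± 0.17). Slc16a6, a monocarboxylate carrier relative that exports ketone bodies from liver in zebrafish, had 490 and 813 against 605 and 664 (log2 0.04 ± 0.27). Its exercise libraries lay on opposite sides of the sedentary pair. Leaving out exercise replicate 1 gave a ratio of 0.36, and leaving out exercise replicate 2 one of -0.37.

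The 2 mitochondrial carriers had higher shares in each exercise library than in either sedentary one, as had 36.0% of all listed genes, and neither passed the thresholds with all 1175 genes in the fit. Slc25a5, the ADP/ATP exchanger of the inner membrane (chromosome X, 36795651 to 36798807), had more counts than any other transporter gene in every library. Its share was 4336 and 3611 in exercise against 3023 and 3093 in sedentary bone, a log2 ratio of 0.38 ± 0.15 (edgeR adjusted p = 0.431), from 0.24 to 0.50 with each library left out. It passed the study's thresholds when the fit held only whole-count genes, and not in the fit of all 1175 genes and 4 libraries. Slc25a44, which brings branched-chain amino acids into mitochondria, had 387 and 363 against 313 and 323, and its ratio of 0.24 ± 0.16 (adjusted p = 0.5089) stayed between 0.19 and 0.28 with each library left out. In contrast to Slc38a6 or Abca9, both genes were highest in exercise replicate 1.

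Of the 4 ion transporter genes, Slc12a5 had the largest ratio on the fewest counts. Slc12a5 is the potassium-chloride cotransporter KCC2, known mainly from neurons, and had 34 and 82 counts in exercise against 5 in each sedentary library. In shares these were 29.3 and 30.6 against 8.41 and 9.67, so that the libraries of each group were close and the groups far apart. The pooled share ratio was 3.36 (exact Clopper-Pearson 95% interval 1.76 to 7.19, counting error only), and the log2 ratio was 1.72 ± 0.92 (edgeR adjusted p = 0.4674). With all 4 libraries it did not pass the thresholds. Dropping exercise replicate 1 put the log2 ratio at 1.75, and dropping exercise replicate 2 put it at 1.68. Those fits hold a lone exercise library, so no call is taken from them.

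Atp2b4, a calcium pump of the plasma membrane also found in red cells, had 1076 and 1482 counts per 1000000 in exercise and 1226 and 1160 in sedentary bone (log2 0.10 ± 0.19). Its exercise libraries lay on either side of the sedentary pair. The erythroid markers given with Slc6a9 apply here as well, and their part was not tested. Atp2b4 has fractional counts and shares exon sequence with another annotated gene.

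Among the 5 genes grouped with metals, Atp7a had the highest ratio of all transporter genes, carried by a single library. Atp7a and Atp7b are the copper pumps that are mutated in human Menkes and Wilson disease. Atp7a had 359 counts in exercise replicate 2 but 7 in exercise replicate 1, and 4 and 2 in the sedentary libraries. In shares this was 134 against 6.03, 6.72 and 3.87, so exercise replicate 1 lay within the sedentary range. The log2 ratio of 3.70 ± 1.57 (edgeR adjusted p = 0.4316) was 0.16 without exercise replicate 2, and with exercise replicate 1 alone the pooled share ratio was 1.12 (95% interval 0.321 to 4.02). With the DESeq2 Wald test Atp7a passed the study's thresholds, at a log2 ratio of 3.56. Atp7b had 99.1 and 175 against 123 and 108 (log2 0.25 ± 0.40), with exercise replicate 2 again the highest library and replicate 1 the lowest.

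The lysosomal and phagosomal genes of the metal group had ratios near 0, overlapped between groups and changed sign with a library left out. Atp13a2, which belongs to the P5-type ATPases and exports polyamines from lysosomes, had 1183 and 898 counts per 1000000 in exercise and 1054 and 1033 in sedentary bone (log2 -0.01 ± 0.18). Slc11a1, the phagosomal metal carrier Nramp1 of macrophages and neutrophils, had 465 and 385 against 432 and 385 (log2 0.05 ± 0.18). The summed share of the neutrophil markers Csf3r and Padi4 was 6978 and 5669 in exercise against 5436 and 5334 in sedentary bone, and their part in the value of Slc11a1 was not tested. Slc30a10, a manganese exporter, had 120 and 133 against 106 and 112, without overlap but with a ratio of 0.21 ± 0.33.

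**Figure D3:**
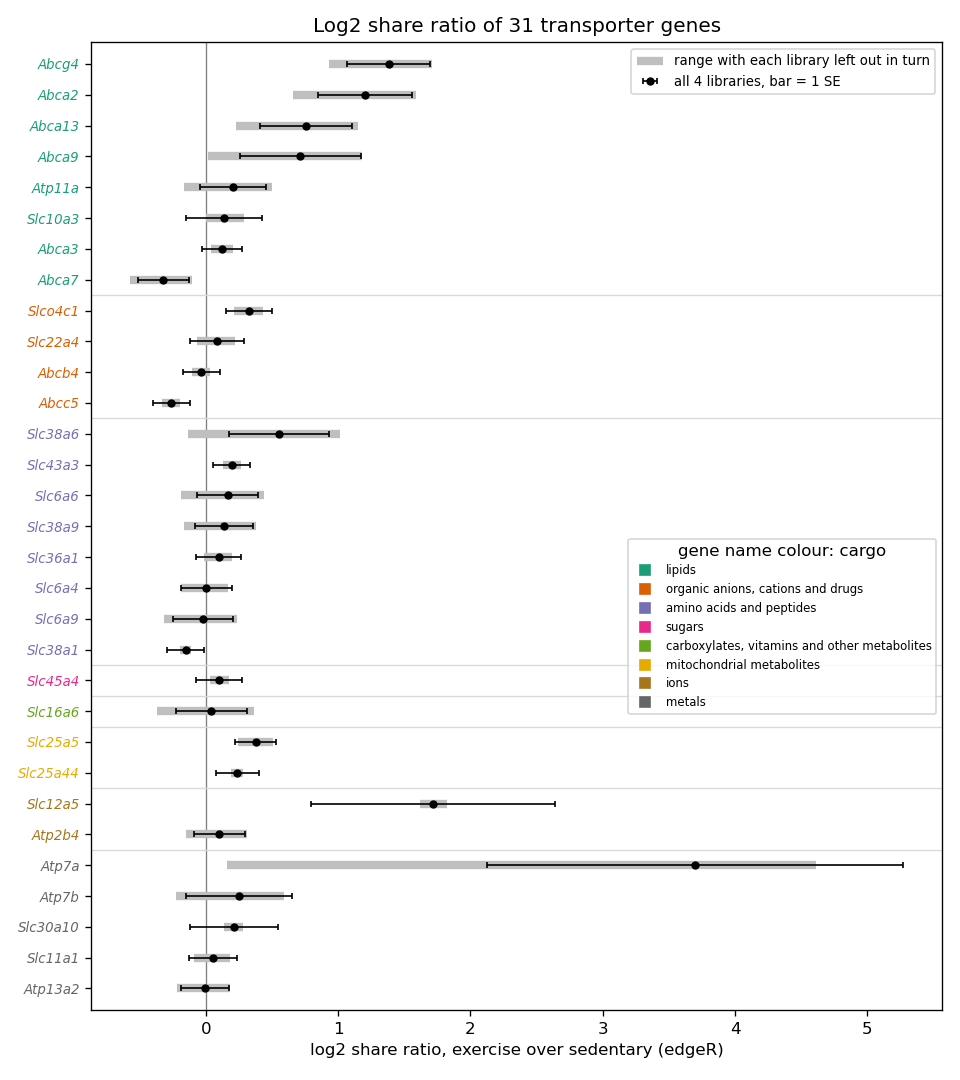
Log2 share ratio of each of 31 transporter genes, exercise over sedentary (points, edgeR, bars 1 SE), with the range of the ratio when each of the 4 libraries is left out in turn (grey). Abcg4, Abca2 and Slc12a5 stay above 0.6 throughout, whereas the grey bar of Atp7a runs from 0.16 to 4.61.

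Over all 34 genes the median log2 ratio was 0.13, against 0.14 over the 1175 listed genes. A higher share was found in 27 genes (79.4%, background 64.1%) and a lower one in 7, but DESeq2 size factors gave 19 to 15 (background 52.8%) and TMM factors 20 to 14 (background 53.4%), since these factors moved the median of all listed genes from 0.14 to 0.035 and 0.042. Both exercise shares lay above both sedentary ones in 10 genes (29.4%, background 36.0%) and below in 3 (8.82%, background 16.1%), 13 together (38.2%, background 52.1%). These shares lie under the background, whereas among whole-count genes (10 of 19, 52.6%, background 47.0%) and without exercise replicate 2 (88.2%, background 84.3%) they lay above it.

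The exercise libraries differed from each other more than the sedentary ones did, in transporter genes as in the whole table. Exercise replicate 2 had the larger share in 24 of 34 genes (62.6% of all listed genes did), and 10 genes (29.4%) differed by more than 1.5 times between the exercise libraries, as did 32.3% of all listed genes, against 1 gene, Atp7a on its 4 and 2 counts, between the sedentary libraries. Among the 32 transporter genes averaging 100 counts or more, log2 ratios of one library to the other had an SD of 0.485 in exercise and 0.164 in sedentary bone, and among all 1002 such genes it was 0.686 and 0.275. The ratio of exercise replicate 2 to replicate 1 ran from 0.68 for Slc6a9 to 22.2 for Atp7a. The summed share of the 4 listed B lymphocyte markers was 42592 in exercise replicate 1 and 11405 in exercise replicate 2, against 22074 and 22288 in sedentary bone, and its part in these values was not tested. Ighm alone made up most of it (41150 and 9160 in exercise), while Pax5 (620 and 789), Cd22 (489 and 567) and Rag1 (334 and 889) were higher in exercise replicate 2 than in replicate 1. The number of transporter genes past the study's thresholds, 2 with all libraries, became 16 when exercise replicate 1 was left out (background 55.3%), 7 without exercise replicate 2 (background 30.7%), 1 without sedentary replicate 1 (background 4.0%) and 1 without sedentary replicate 2 (background 3.74%). At an adjusted p under 0.05, leaving out exercise replicate 1 gave 19 genes (background 55.4%) and leaving out exercise replicate 2 gave 7 (background 27.1%). Separated groups numbered 30 without exercise replicate 1 (background 88.3%), 30 without exercise replicate 2 (84.3%), 17 without sedentary replicate 1 (67.3%) and 17 without sedentary replicate 2 (64.2%). In the other settings the background at the study's thresholds was 12.1% with DESeq2 size factors, 11.5% with TMM factors, 5.79% with limma-voom, 13.3% in DESeq2's Wald test, 11.2% with a minimum mean of 20 counts, 10.2% with the replicate block and 7.55% among whole-count genes. The background of separated groups was 55.5% with DESeq2 size factors, 55.6% with TMM factors, 50.8% with the count minimum and 47.0% among whole-count genes.

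**Figure D4:**
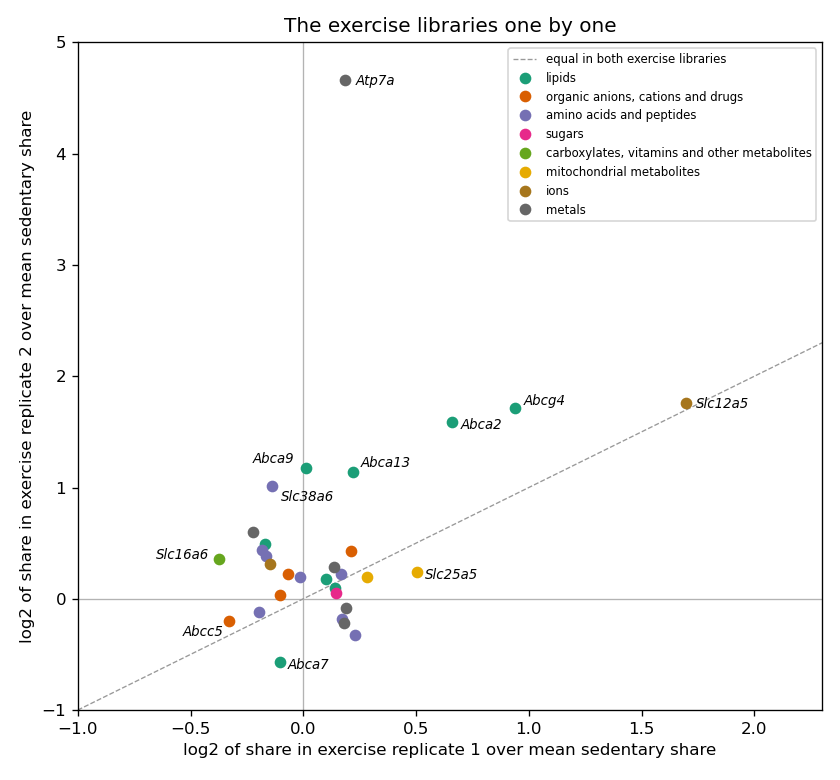
Log2 of the share in exercise replicate 1 (horizontal) and in exercise replicate 2 (vertical) over the mean sedentary share, 1 point for each of 31 transporter genes, coloured by cargo, with a dashed line where the libraries are equal. Slc12a5 lies on the line, Abcg4 and Abca2 lie above it with both values over 0, and Atp7a is high on the vertical axis only, at a share 25.3 times the sedentary mean in replicate 2 and 1.14 times in replicate 1.

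A list of transport genes outside these name families was also examined. Of 72 such genes (channels, lysosomal and plasma membrane carriers), 15 were listed, 9 with a higher share (background 64.1%) and 6 with a lower one, and in edgeR 0 met the study's thresholds (background 11.3% for a higher and 0.0851% for a lower share). Both exercise shares lay above both sedentary ones in 6 (background 36.0%) and below in 3 (background 16.1%). Their median log2 ratio was 0.24, against 0.14 over all listed genes. These counts and this median include Kel, which is neither a channel nor a carrier. It had a ratio of -0.15 ± 0.15, with both exercise shares below both sedentary ones. The highest ratio was that of Pkd1, a polycystin (0.52 ± 0.23, edgeR adjusted p = 0.446), and the lowest that of Tpcn1, a lysosomal two-pore cation channel (-0.30 ± 0.15, adjusted p = 0.4563). Clcn7, the chloride-proton exchanger that accompanies the osteoclast proton pump, had a ratio of -0.02 ± 0.15, and Aqp1, the water channel of red cells, of -0.22 ± 0.14.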

How the data were processed

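Bone RNA from 4 libraries was analysed, 2 exercise and 2 sedentary, grouped by title. The submitters' processing notes name STAR, HTSeq and mm10. The study's methods describe removal of duplicates by molecular barcode, and thresholds applied with DESeq2, for RNA-seq of isolated cells and do not state them for bone. For versions, annotation and strand setting, nothing is given in the sources used here. The deposited values are estimated counts (unscaled) of 1175 genes with higher mean counts in exercise. The selection rule is not given. Of the 34 transporter genes 15 have fractional counts (tolerance 1e-09), and by GENCODE M21, in which all 34 matched by symbol, 11 share exon sequence with another gene (5 on the same strand, among them Atp2b4, Slc16a6 and Slc10a3, and 8 on the opposite strand, among them Abca3, Slc6a9, Slc6a6, Atp11a, Slc38a9, Slc16a6 and Slc30a10). These values are uncertain, as are those of close relatives.

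Counts were rounded, scaled by column totals and fitted on all 1175 genes in R 4.3.3 with edgeR 4.0.16 (quasi-likelihood test, group the single term), and two-sided p-values were adjusted by Benjamini-Hochberg. Each SE is the size of the log2 ratio divided by √F. With 2 libraries a group, exact permutation has a floor of p = 0.333, so none was run. With the edgeR test kept, alternatives were TMM factors and edgeR's own version (RLE) of DESeq2 size factors, called DESeq2 size factors here. Others were the Wald test of DESeq2 1.42.0, limma-voom (limma 3.58.1) and the replicate block. Fits were also run with a minimum mean of 20 counts, on whole-count genes and with each library left out. The fit was tested on simulated data with equal variation in both groups and no selection of rows, unlike these data. Families were assigned to cargo groups by number. Of the 34 genes, 3 entered every count, sum and fit but are not reported here singly, and the plots show the other 31. Full values were planned for 19: those past the thresholds, the 2 with the most counts of each cargo group, and the 3 highest and 3 lowest ratios. Values of the remaining genes were added after they had been seen. Members, cargo groups and lists were chosen with earlier results of these data known. Promoters are from RefSeq (GRCm38.p6), matched by symbol for 23 genes. Summaries used Python 3.11.15 (pandas 2.3.3, SciPy 1.17.1), plots matplotlib 3.10.9.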

Additional observations from a re-analysis of the deposited data

How the results depend on the processing

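All alternatives were planned. Transporter genes at the study's thresholds, 2, numbered 3 with DESeq2 size factors, TMM, the Wald test or the replicate block, 2 with the count minimum or whole counts, 0 with limma-voom, and from 1 to 16 when a library was dropped. Genes at an adjusted p under 0.05, 0, numbered 1 with the Wald test and from 0 to 19 when a library was dropped. Genes with separated shares, 13, numbered 10 with TMM, 10 of 19 among whole counts, 11 with DESeq2 size factors, 13 with the count minimum and 17 to 30 when a library was dropped. Dropping 1 leaves a lone library, whose variation is taken from the opposite group, and the sedentary pair varies little. In the replicate block fit Abca13 was added to the calls. No pairing by replicate number was seen (correlation of deviations across 1143 genes -0.09, with 1 difference per group). Log2 ratios changed sign with DESeq2 size factors (Atp2b4 -0.012, Slc11a1 -0.045, Slc6a4 -0.095, Slc45a4 -0.0024, Slc36a1 -0.013, Slc22a4 -0.027, Slc16a6 -0.077), the Wald test (Atp2b4 -0.012, Slc11a1 -0.044, Slc6a4 -0.094, Slc45a4 -0.0022, Slc36a1 -0.013, Slc22a4 -0.027, Slc16a6 -0.078), TMM (Atp2b4 -0.0060, Slc11a1 -0.037, Slc6a4 -0.086, Slc36a1 -0.0059, Slc22a4 -0.020, Slc16a6 -0.071), limma-voom (Slc6a4 -0.022) and the replicate block (Slc6a4 -0.0014, Slc16a6 -0.0035). With each library left out 14 of the 31 ratios reported changed sign, within these ranges: Slc38a6 -0.14 to 1.01, Atp13a2 -0.22 to 0.18, Slc6a9 -0.32 to 0.23, Slc6a6 -0.19 to 0.44, Atp2b4 -0.15 to 0.31, Slc11a1 -0.088 to 0.18, Atp11a -0.17 to 0.50, Slc6a4 -0.18 to 0.17, Slc38a9 -0.16 to 0.38, Abcb4 -0.11 to 0.031, Slc36a1 -0.013 to 0.20, Slc22a4 -0.069 to 0.22, Slc16a6 -0.37 to 0.36, Atp7b -0.22 to 0.59. The cause was not tested. Of the 31, 16 kept their sign under each alternative run. Unknown library totals limit every direction, and the counts of Atp7a and Slc12a5 limit their ratios.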
